A study of Mus musculus with 3 samples.

Results

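Dkk1, which encodes a secreted inhibitor of Wnt signalling, was followed together with 9 other genes of the Wnt pathway in single mouse embryonic stem (ES) cells with and without acute loss of cohesin. The 10 members, of 52636 genes in the tables, were the ligands Wnt3 and Wnt9a, the inhibitors Dkk1, Axin2 and Nkd1, the nuclear factors Lef1, Tcf7 and Tcf7l1, and the transcription factors Sp5 and T (Brachyury). They were picked by symbol with results of these data known, and the change of Dkk1 with auxin is part of the reason for the choice, so the values of the members between control and auxin are given as a description without a test. All 10 symbols were found in the tables of the 3 replicates, and all 10 passed the filter on low counts.

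The cells were JM8.N4 mouse ES cells of the C57BL/6N strain in which the cohesin subunit RAD21 carries an auxin-inducible degron (AID), a tag that leads to destruction of the protein when auxin is added. Control cells received no auxin, and auxin cells received 500 μM of the auxin indole-3-acetic acid for 6 h. All cells of both conditions were grown without feeders in medium with serum, leukemia inhibitory factor, 1 μM PD0325901 and 3 μM CHIR99021. CHIR99021 inhibits the kinase GSK3 and thereby activates the Wnt pathway. By the study's methods every value below comes from cells grown with this inhibitor, and no cells without it were analysed here. How active the pathway was in each replicate was not tested. Single cells were sorted into plates and sequenced by Smart-SCRB, which reads the 3′ end of transcripts and counts molecules by unique molecular identifiers (UMIs). The whole procedure was carried out 3 times, and each replicate held both conditions.

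In the canonical Wnt pathway, a secreted ligand binds a Frizzled receptor and the coreceptor LRP5 or LRP6, which stops a cytoplasmic complex built on AXIN and GSK3 from marking β-catenin for destruction. β-catenin then enters the nucleus and binds the TCF/LEF factors, which turn on genes such as Axin2, Sp5, T, Lef1 and Nkd1. Several of these genes act back on the pathway: AXIN2 and NKD1 dampen it inside the cell, and DKK1 blocks LRP5 and LRP6 from outside. In mouse ES cells the pathway favours self-renewal, and TCF7L1 mainly represses its target genes until β-catenin relieves it.

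TCF/LEF factors bind sites with cores such as CTTTGA, and the stretches of DNA that hold this core are shown because they mark which members carry the motif of the pathway next to their own start. In the 250 bases before each RefSeq start (GRCm38.p6, the assembly of mm10), CTTTGA or its reverse complement TCAAAG was found in 4 of 14 windows, which belonged to 4 of the 10 members. Of all 32851 windows of the RefSeq table, 13.8% held at least 1 match and 1.37% held at least 2. Each stretch below runs 5′ to 3′ on the strand of the gene, with the core in capitals.
Dkk1, chr19:30549653-30549682, minus strand, core from base -174: gaggggagagtgTCAAAGtcctccctgctt
Dkk1, chr19:30549596-30549625, minus strand, core from base -117: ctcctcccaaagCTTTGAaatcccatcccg
Sp5, chr2:70474707-70474736, plus strand, core from base -204: gacactttgtcaCTTTGAgcactgccttgg
Sp5, chr2:70474807-70474836, plus strand, core from base -104: cggcaaggccccCTTTGAtcaggaaaatcc
T, chr17:8434177-8434206, plus strand, core from base -234: ctgctcggtactTCAAAGggtgtcccgccc
Lef1, chr3:131156102-131156131, plus strand, core from base -180: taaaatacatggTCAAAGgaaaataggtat
Lef1, chr3:131156162-131156191, plus strand, core from base -120: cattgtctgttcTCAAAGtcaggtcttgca
Dkk1, Sp5 and Lef1 thus held 2 matches each and T held 1. In Lef1 only the most downstream of its 4 annotated starts had a match. GENCODE places the start of Dkk1 at base 30549665, upstream of the RefSeq start, so by that annotation 1 of its matches lies inside the gene and the other ends at the first base of the gene. A match is a description of the letters, and the windows of Wnt3, Wnt9a, Axin2, Tcf7, Tcf7l1 and Nkd1 held none.

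Of 1536 wells, 1335 had more than 2600 detected genes and were kept as cells. On 2 plates of replicate 3 the condition in the deposited annotation disagrees with the study's source values for the detected genes, and the 168 cells on these 2 plates were left out, which left 1167 cells. Only the 4 plates of replicate 3 were found in these source values. The conditions of the plates of replicates 1 and 2 could not be checked in this way and rest on the annotation alone. In replicate 1 the annotation reads RAD21 positive and RAD21 negative, taken here as control and auxin. The cells and summed UMIs were 168 cells with 18021566 UMIs (control) and 169 cells with 19231342 UMIs (auxin) in replicate 1. In replicate 2 they were 371 cells with 49044837 UMIs and 290 cells with 50448320 UMIs, and in replicate 3 they were 85 cells with 6064936 UMIs and 84 cells with 6686376 UMIs. Plates of replicates 2 and 3 used the same 96 well barcodes. Rad21, the targeted gene, had 20.9 counts per 1000000 UMIs (CPM) in control and 19.3 CPM in auxin in replicate 1, 31.2 CPM and 34.0 CPM in replicate 2, and 42.4 CPM and 45.2 CPM in replicate 3. This is the level of the transcript, which the degron does not act on, and so it does not check the loss of the protein.

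Levels could not be set side by side freely between the replicates. Sox2 had 2790 and 1871 UMIs in the control and auxin cells of replicate 1 and 0 UMIs in replicates 2 and 3. It was 1 of 136 genes above 20 CPM in both sums of replicate 1 and below 1 CPM in all 4 sums of replicates 2 and 3. Of these genes, 134 were in the annotation and 132 (98.5%) overlapped another gene on the same strand, against 19.6% of the 4767 genes above 20 CPM in all 6 sums. The reverse, below 1 CPM in both sums of replicate 1 and above 20 CPM in the other 4 sums, held for 70 genes, of which 65.7% overlapped a gene on the same strand. The median length of these 70 genes was 187 kb, against 19.0 kb for the 4767 genes. No gene showed the first pattern for replicate 3 against replicates 1 and 2. How reads of overlapping genes were counted is not given in the sources used here, and the levels of Tcf7, Lef1, Tcf7l1 and Nkd1, which overlap other genes on the same strand, are given by replicate below without setting replicate 1 against the others.

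Replicate 2 stood apart from the other replicates in both conditions. Nanog, a core ES cell factor, was at 58.6 CPM in control and 38.9 CPM in auxin in replicate 2, against 495 to 563 CPM in replicates 1 and 3. Tfcp2l1, a factor of naive ES cells, was at 4.10 CPM and 2.52 CPM against 239 to 329 CPM. Not every marker was lower there, since Tdgf1 was at 620 CPM and 527 CPM in replicate 2 and at 508 to 642 CPM in the others. Pou5f1 was at 8.40 CPM and 5.81 CPM, close to the 12.5 CPM and 10.9 CPM of replicate 3. Here replicate 1 stood apart, with Pou5f1 at 273 CPM and 228 CPM. Summed over 9 ES cell markers, the level was 4541 CPM and 2868 CPM in replicate 2 and 8583 to 10650 CPM in the others, and most of this sum was Dppa5a (3560 CPM and 2118 CPM in replicate 2). No marker of the ES cell list was below 1 CPM in all 6 sums. The summed level of 7 primitive streak markers lay between 3.63 and 33.7 CPM, that of 6 primitive endoderm markers between 8.32 and 24.8 CPM, that of 5 trophectoderm markers between 5.49 and 100 CPM and that of 5 fibroblast markers between 1.09 and 8.74 CPM. Foxa2, Evx1, Sox7, Cdx2, Elf5, Col3a1 and Postn were below 1 CPM in all 6 sums. What set replicate 2 apart was not tested, and each result below is given by replicate. Replicates also differed in sequencer, with replicate 1 on one instrument and replicates 2 and 3 on another.

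Dkk1 lies on chromosome 19 (mm10, 30545863 to 30549665, minus strand) and overlaps no other annotated gene. In replicate 1, Dkk1 was at 11.9 CPM and 14.1 CPM on the 2 control plates and at 69.4 CPM and 43.5 CPM on the 2 auxin plates. In replicate 3, it was at 9.07 CPM on the control plate and 53.4 CPM on the auxin plate. In replicate 2, the 4 control plates had 0.49, 0.08, 0 and 0 CPM and the 4 auxin plates 2.99, 0.71, 0 and 0 CPM. The auxin plates were thus several-fold above the control plates in replicates 1 and 3, while in replicate 2 the gene was close to absent and the plates of both conditions overlapped at 0. Plates of 1 replicate share their culture and are not replicates of the condition.

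**Figure D1:**
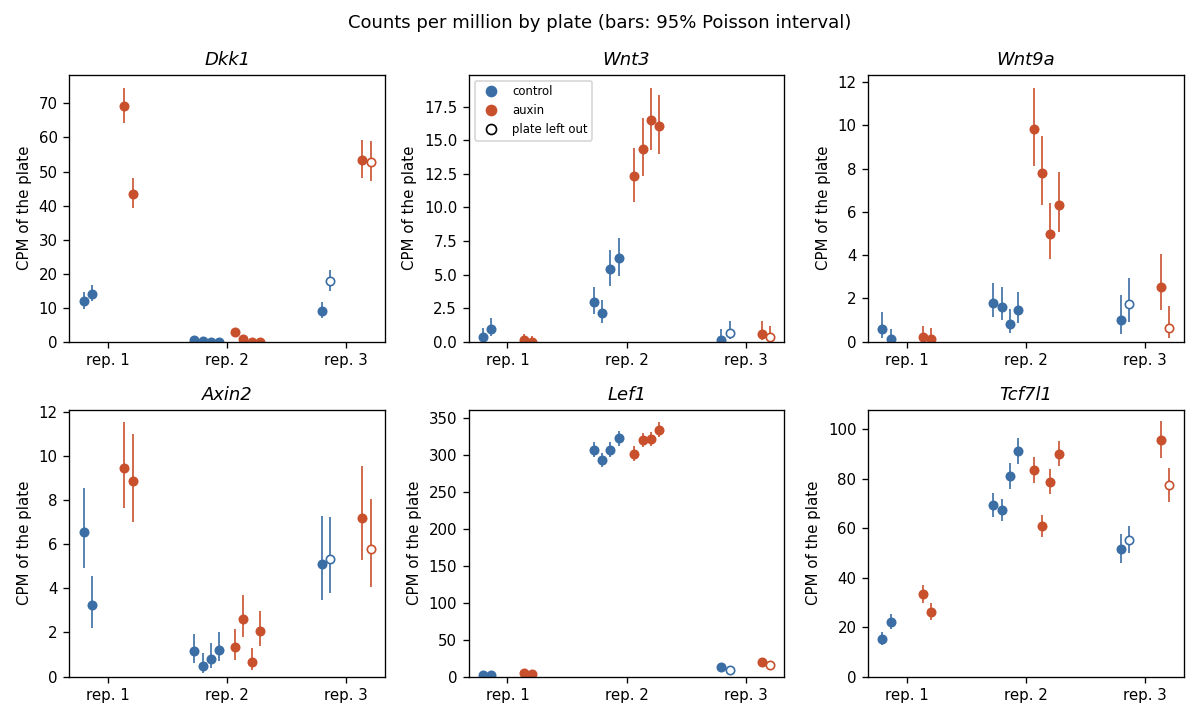
CPM of 6 members on each plate (y axis, linear, own scale per panel) by replicate (x axis), with 95% Poisson intervals as bars, control in blue and auxin in red, and open symbols for the 2 plates of replicate 3 left out of the sums. Dkk1 reached 43.5 to 69.4 CPM on the auxin plates of replicate 1 and 53.4 CPM on the auxin plate of replicate 3 kept in the sums. Lef1 was at 293 to 334 CPM on the plates of replicate 2 and at 12.5 and 19.3 CPM on the plates of replicate 3 kept in the sums.

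Summed over the cells of a condition, Dkk1 went from 236 to 1100 UMIs in replicate 1, from 7 to 45 UMIs in replicate 2 and from 55 to 357 UMIs in replicate 3. In CPM the auxin sum was 4.37, 6.25 and 5.89 times the control sum. On the log2 scale the mean difference was 2.44 ± 0.28 (SD, n = 3 replicates), higher in 3 of 3. The change was similar in replicates 1 and 3 alone, with a mean of 2.34. The ratio in replicate 2 rests on 7 UMIs in control, and its 95% counting interval ran from 1.48 to 4.04 (log2). These intervals cover counting error only.

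Both plates left out of replicate 3 also held Dkk1. The plate annotated as control had 17.8 CPM and the plate annotated as auxin 52.8 CPM, whereas the source values give these 2 plates the opposite conditions. With both plates kept under the deposited condition, the fitted log2 fold change of Dkk1 was 2.04, and with both under the condition of the source values it was 1.18, against 2.29 without them. The size of the change in replicate 3 therefore depends on these plates, while that in replicate 1 (2.13) does not.

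Dkk1 was found in a minority of cells. To make cells of different depth comparable, every cell was thinned to 40000 UMIs and cells with fewer were left out (5 control and 4 auxin cells of replicate 1, 51 and 34 of replicate 2, and 3 and 8 of replicate 3). In replicate 1, 25 of 163 control cells had a Dkk1 UMI (15.3%, 95% exact binomial interval 10.2 to 21.8%) and 71 of 165 auxin cells did (43.0%, 35.4 to 51.0%). In replicate 3, 11 of 82 control cells (13.4%, 6.89 to 22.7%) and 37 of 76 auxin cells (48.7%, 37.0 to 60.4%) did. In replicate 2, 1 of 320 control cells (0.312%) and 4 of 256 auxin cells (1.56%, 0.43 to 3.95%) had 1. The share was 21.4 ± 17.9 percentage points higher with auxin (SD, n = 3), and higher in 3 of 3 replicates. Without thinning, replicate 1 had shares of 16.1% in control and 47.3% in auxin, replicate 2 of 0.539% and 2.07%, and replicate 3 of 17.6% and 46.4%.

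In replicates 1 and 3, cells with Dkk1 also held more of it with auxin. Among thinned cells with a UMI, the mean was 3.80 UMIs in control and 5.54 UMIs in auxin in replicate 1, and 2.36 and 4.84 UMIs in replicate 3. In replicate 2, the 1 control cell had 2 UMIs and the mean of the 4 auxin cells was 1.75 UMIs. Cells with more than 10 Dkk1 UMIs made up 1.23% of control and 5.45% of auxin cells in replicate 1, and 0% (0 of 82 cells, which allows a share of up to 3.66% by a limit of 3 counts and 4.4% by the exact binomial interval) and 6.58% in replicate 3. Before thinning, the cell with the most Dkk1 UMIs had 33 UMIs in control and 74 UMIs in auxin in replicate 1, and 9 and 55 UMIs in replicate 3. The variance of the thinned counts over cells was 8.81 times their mean in control and 9.52 times in auxin in replicate 1, and 2.48 and 7.92 times in replicate 3. In both conditions the counts were thus spread far more widely over cells than a Poisson distribution with 1 common mean would give. Even with auxin, 57.0% of the cells of replicate 1 and 51.3% of those of replicate 3 had no Dkk1 UMI at this depth, which is not a measure of cells without expression.

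**Figure D2:**
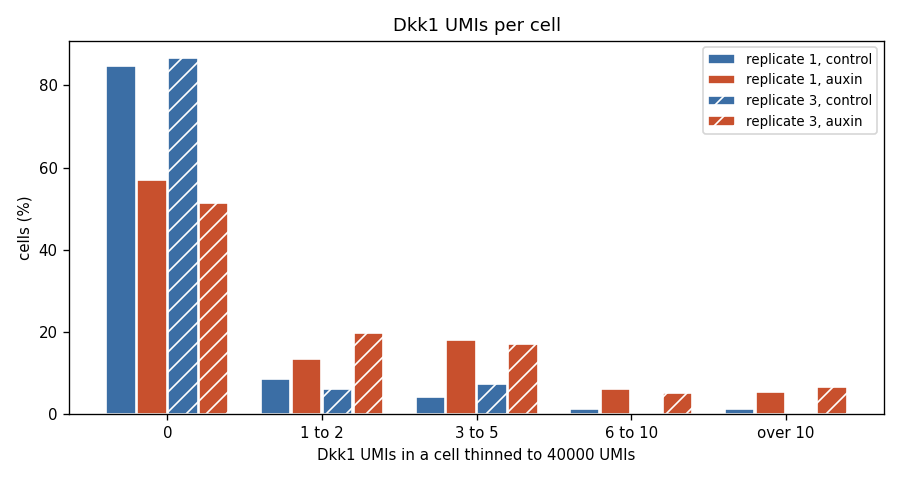
Percent of cells (y axis) by the number of Dkk1 UMIs in a cell thinned to 40000 UMIs (x axis), for control (blue) and auxin (red) cells of replicate 1 (plain) and replicate 3 (hatched). Cells without a UMI made up 84.7% and 86.6% of control cells and 57.0% and 51.3% of auxin cells, and every bin above 0 held a larger share of auxin than of control cells.

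The other 2 members that act as inhibitors work inside the cell. Axin2 (chromosome 11, 108920349 to 108950783, plus strand), a scaffold of the destruction complex and a widely used readout of the pathway, was at 6.55 and 3.22 CPM on the control plates of replicate 1 and at 9.43 and 8.84 CPM on the auxin plates. In replicate 3, Axin2 was at 5.11 CPM in control and 7.18 CPM in auxin. In replicate 2, it was between 0.49 and 1.22 CPM on control plates and between 0.65 and 2.62 CPM on auxin plates, which overlapped. The auxin sum of Axin2 was 1.92, 1.84 and 1.40 times the control sum in replicates 1, 2 and 3, a mean log2 difference of 0.77 ± 0.24 (SD, n = 3). In replicate 3 the counting interval of this difference reached from -0.19 to 1.19 and so included 0. At 40000 UMIs per cell, Axin2 was seen in 12.3% of control and 17.6% of auxin cells of replicate 1, against 3.44% and 2.34% for replicate 2 and 14.6% and 18.4% for replicate 3, with overlapping intervals in all 3. The mean of these thinned counts in replicate 2 was 0.044 UMIs per cell in control and 0.039 in auxin, the opposite direction to the sums. Nkd1 (chromosome 8, 88521354 to 88594884, plus strand) had 7 control and 22 auxin UMIs in replicate 1, against 89 and 186 for replicate 2 and 13 and 7 for replicate 3, a mean log2 difference of 0.52 ± 1.37 (SD, n = 3) that was higher with auxin in 2 of 3 replicates. The SD of Nkd1 was larger than its mean difference.

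The ligands had most of their UMIs in replicate 2, where Dkk1 was nearly absent. Wnt3 (chromosome 11, 103774150 to 103817957, plus strand), a ligand needed for the primitive streak, was at 2.95, 2.11, 5.38 and 6.20 CPM on the 4 control plates of replicate 2 and at 12.3, 14.4, 16.5 and 16.1 CPM on the 4 auxin plates. Wnt9a (chromosome 11, 59306928 to 59333552, plus strand) was at 1.80, 1.62, 0.82 and 1.47 CPM on the control plates and at 9.81, 7.78, 4.98 and 6.34 CPM on the auxin plates. For both ligands each auxin plate of replicate 2 was above each control plate. The sums of replicate 2 went from 204 to 749 UMIs for Wnt3 (3.57 times in CPM) and from 70 to 363 UMIs for Wnt9a (5.04 times).

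Elsewhere the ligands had few UMIs. Wnt3 had 12 and 1 UMIs (control and auxin) in replicate 1 and 1 and 4 UMIs in replicate 3. The log2 counting interval of Wnt3 was -9.10 to -0.92 in replicate 1, the opposite direction to replicate 2, and included 0 in replicate 3 (-1.48 to 7.48). However, the 12 control UMIs of replicate 1 lay in 3 of 168 cells, with up to 7 UMIs in a cell. The interval does not cover this spread over cells. Wnt9a had 6 and 3 UMIs in replicate 1 and 6 and 17 UMIs (0.99 and 2.54 CPM) in replicate 3. The ratio of Wnt9a in replicate 3 was 2.57 (log2 1.36), with a counting interval of -0.05 to 2.99 on the log2 scale that included 0. Over replicates 2 and 3 its mean log2 difference was 1.85 ± 0.69 (SD, n = 2), higher in 2 of 2. At 40000 UMIs per cell, Wnt3 was found in 8.12% (5.38 to 11.7%) of control and 18.0% (13.5 to 23.2%) of auxin cells of replicate 2, and Wnt9a in 4.38% (2.41 to 7.23%) and 13.7% (9.71 to 18.5%). For both ligands the intervals of the conditions did not overlap.

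**Figure D3:**
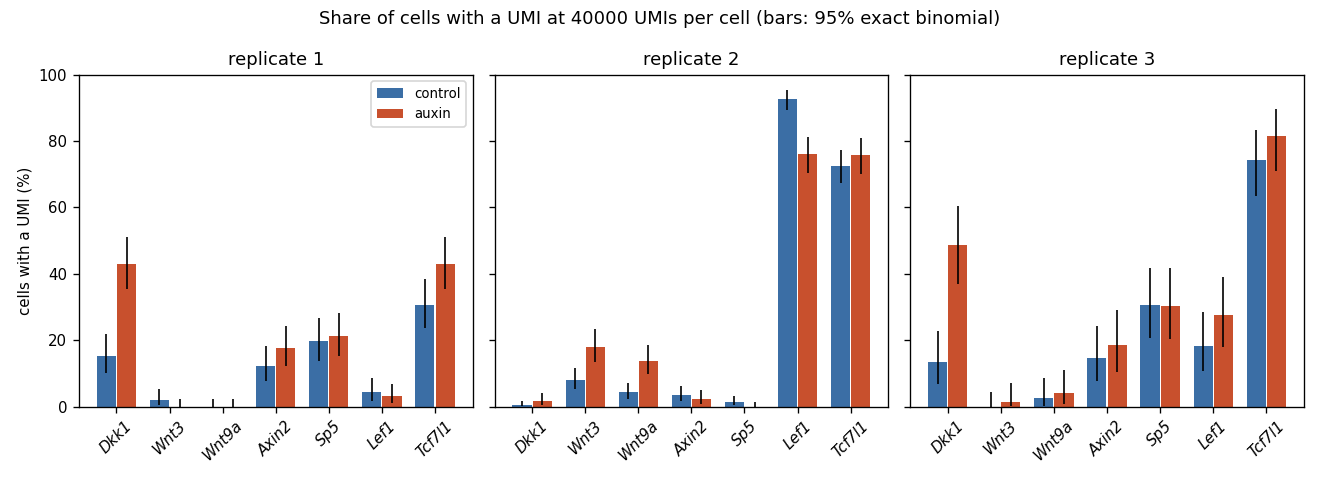
Percent of cells with at least 1 UMI of each of 7 members (y axis) after thinning to 40000 UMIs per cell, by replicate (panels) and condition (control in blue, auxin in red), with 95% exact binomial intervals. The share for Dkk1 went from 15.3% to 43.0% for replicate 1, from 0.312% to 1.56% for replicate 2 and from 13.4% to 48.7% for replicate 3, and Lef1 was found in 92.8% and 76.2% of the cells of replicate 2.

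Lef1, Tcf7 and Tcf7l1 encode 3 of the 4 TCF/LEF factors, which are the DNA-binding end of the pathway. Lef1 (chromosome 3, 131110471 to 131224356, plus strand) was at 2.14 and 2.08 CPM on the control plates of replicate 1 and 4.91 and 3.20 CPM on the auxin plates. In replicate 3 it was at 12.5 CPM in control and 19.3 CPM in auxin. On the plates of replicate 2, Lef1 was at 293 to 322 CPM in control and 301 to 334 CPM in auxin. Lef1 was thus more than 10-fold higher in replicate 2 than in replicate 3 in both conditions, with 1 culture each and no test, and whether reads of Lef1 were counted alike in these replicates was not tested. The log2 difference with auxin was 0.96, 0.06 and 0.62 in the 3 replicates, with a mean of 0.55 ± 0.46 (SD, n = 3). In replicate 1 it rests on 38 UMIs in 11 control cells and 79 UMIs in 9 auxin cells, with up to 25 UMIs in a cell.

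Although the summed level of Lef1 hardly differed between the conditions of replicate 2, its spread over cells did. At 40000 UMIs per cell, 297 of 320 control cells (92.8%, 89.4 to 95.4%) and 195 of 256 auxin cells (76.2%, 70.5 to 81.3%) had a Lef1 UMI. By plate the share was 90.6, 91.2, 90.5 and 98.8% in control and 70.8, 78.1, 78.8 and 77.0% in auxin, without overlap. Of 9181 genes found in at least 20% of the cells of either condition of replicate 2, 7.53% had each auxin plate below each control plate in the same way, and 3.79% had each auxin plate above. Auxin cells with Lef1 held more of it, with a mean of 15.9 UMIs against 12.6 UMIs in control. The variance of Lef1 over cells was 7.99 times the mean in control and 15.1 times in auxin. Elsewhere the share of cells with Lef1 was 4.29% in control and 3.03% in auxin (replicate 1) and 18.3% and 27.6% (replicate 3), with overlapping intervals in both.

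In replicate 2 the ligands were found both in cells with and in cells without a Lef1 UMI. Of the 61 auxin cells without Lef1, 17 had Wnt3 (27.9%, 17.1 to 40.8%) and 13 had Wnt9a (21.3%, 11.9 to 33.7%). Of the 195 auxin cells with Lef1, 29 had Wnt3 (14.9%, 10.2 to 20.7%) and 22 had Wnt9a (11.3%, 7.21 to 16.6%). The intervals overlapped for both ligands. The cells without Lef1 had fewer UMIs before thinning (median 141968 against 205441), and the part of depth or cell state in this pattern was not tested. In control, only 23 of 320 cells lacked a Lef1 UMI, and 2 of them had Wnt3.

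Tcf7l1 (chromosome 6, 72626378 to 72789254, minus strand) was at 15.1 and 22.0 CPM on the control plates of replicate 1 and 33.2 and 26.1 CPM on the auxin plates. It was at 51.6 CPM in control and 95.7 CPM in auxin in replicate 3. In replicate 2 the control plates had 67.3 to 91.1 CPM and the auxin plates 60.8 to 90.2 CPM, which overlapped over nearly their whole range. Its log2 differences in replicates 1, 2 and 3 were 0.67, 0.02 and 0.89 (mean 0.53 ± 0.45, SD, n = 3). Tcf7l1 was found in 30.7% and 43.0% of the thinned control and auxin cells of replicate 1. For replicates 2 and 3 the 4 shares lay between 72.5 and 81.6%.

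Tcf7 (chromosome 11, 52252371 to 52283014, minus strand) shares 17.1 kb with Gm26551, a noncoding gene on the same strand that had 0 CPM in replicate 1 and 16.7 to 29.8 CPM in replicates 2 and 3. How reads were divided between them was not tested. Tcf7 was at 5.84 and 7.27 CPM on the control plates of replicate 1 and 7.07 and 9.39 CPM on the auxin plates. In replicate 2 it had 75 UMIs in control and 2 in auxin, with each auxin plate below each control plate, and in replicate 3 it had 0 and 1 UMIs. The difference of Tcf7 in replicate 2 cannot be set beside a comparable value in another culture.

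Sp5 and T, the target genes that encode transcription factors of other families, showed no common direction over the replicates. Sp5 (chromosome 2, 70474923 to 70477729, plus strand), a direct target of the pathway, was at 18.3 and 11.8 CPM on the control plates of replicate 1 and 17.2 and 18.6 CPM on the auxin plates. It was at 23.6 CPM and 22.7 CPM in replicate 3. Over these replicates the mean log2 difference of Sp5 was 0.10 ± 0.22 (SD, n = 2). Sp5 was found in 19.6% and 21.2% of thinned control and auxin cells of replicate 1 and in 30.5% and 30.3% of those of replicate 3. In replicate 2 it had 17 UMIs in control and 1 in auxin. T (chromosome 17, 8434423 to 8442496, plus strand), the marker of the primitive streak, had between 3 and 14 UMIs in each of the 6 sums and at most 1.50 CPM. In replicate 1 it went from 14 to 3 UMIs (log2 counting interval -4.76 to -0.47), but all 14 control UMIs lay on 1 of the 2 plates, in 2 cells. In replicates 2 and 3 the intervals of T included 0.

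**Figure D4:**
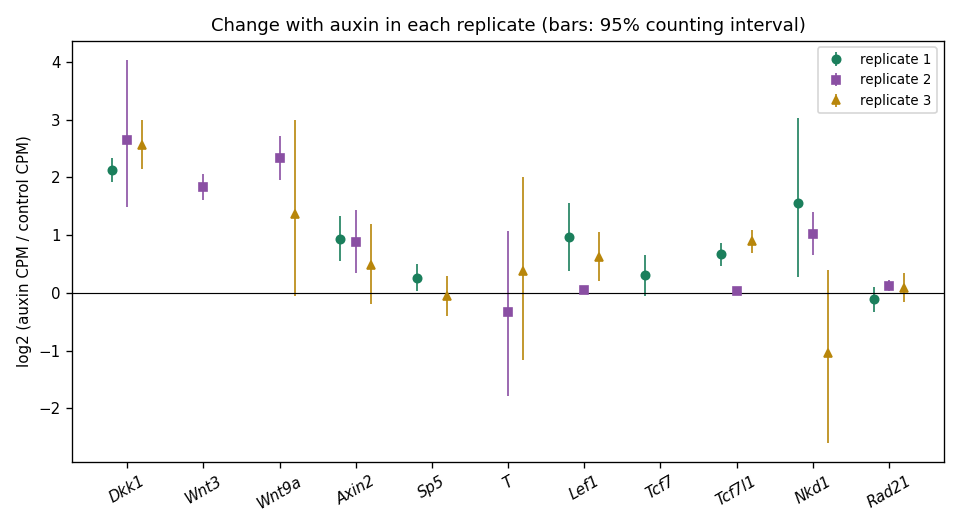
Log2 ratio of auxin CPM to control CPM (y axis) for the 10 members and Rad21 (x axis) in replicates 1 (circles), 2 (squares) and 3 (triangles), with 95% counting intervals as bars and no point where either sum had 3 UMIs or fewer. Dkk1 was at 2.13, 2.64 and 2.56, and Axin2 at 0.94, 0.88 and 0.49, while Rad21 was at -0.11, 0.13 and 0.09. Sp5 was at 0.26 and -0.05 in replicates 1 and 3 and has no point for replicate 2, where it went from 17 to 1 UMIs.

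In all 6 sums 5 members had more than 3 UMIs, and 4 of them (Dkk1, Axin2, Lef1 and Tcf7l1) had a higher CPM with auxin in the sums of all 3 replicates. The share of thinned cells with a UMI was nevertheless lower with auxin for Axin2 in replicate 2 and for Lef1 in replicates 1 and 2. Of the 13202 genes with more than 3 UMIs in all 6 sums, 17.8% were higher with auxin in all 3 replicates and 13.0% were lower. By plate, 5 of the 9 members with over 10 UMIs in replicate 1 had both auxin plates above both control plates (Dkk1, Axin2, Lef1, Tcf7l1 and Nkd1) and Wnt3 had both below. Over all 17230 genes with over 10 UMIs in replicate 1 the shares were 19.2% and 14.8%. In replicate 2, Wnt3 and Wnt9a of the 10 members had all 4 auxin plates above all 4 control plates and Tcf7 had all below, against 5.91% and 5.04% of 23839 genes. These counts come from the contrast on which members were chosen and say nothing further about them.

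Beyond the members, the wider pathway was read from a list of 108 Wnt genes by role, 98 of which are no members. UMIs were summed per replicate and condition and tested across 17514 genes with the quasi-likelihood test of edgeR and Benjamini-Hochberg adjustment. Without a replicate block this fit called 0.0% of all genes (0 genes, with 33 at an unadjusted p under 0.05, and 0 by DESeq2). With the replicate as a block it called 3 genes (0.0171% of those tested). Of the 78 non-members tested, 0 passed in either direction with or without the block. An unadjusted p under 0.05 was found for 2 of them (2.56%) without the block, against 0.188% of all genes tested, and for 6 (7.69%) with it, against 5.92% of all genes tested. DESeq2 with the block called 56 of the 10383 genes to which it gave an adjusted p (0.539%). Of the 88 list genes tested 47 had one, and Tle4, a corepressor that binds TCF/LEF factors, was the only non-member of the list called. The median log2 fold change without the block was 0.01 over the 78 non-members, 0.48 over the 10 members and close to 0 (-0.0010) over all genes tested. Since the members were chosen with results of this contrast known, their median is no result about them.

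The roles of the pathway are given by their most abundant genes. Among ligands, Wnt5b was at 9.77 to 25.2 CPM and Wnt6 at 1.46 to 7.77 CPM over the 6 sums, and 0 of the 10 ligands tested that are no members passed. Wls and Porcn, which carry and acylate Wnt proteins for secretion, differed by 0.34 (SE 0.14) and -0.69 (SE 0.20) on the log2 scale with the block, with adjusted p of 0.83 and 0.70 by edgeR. Wls was higher with auxin in 3 of 3 replicates and Porcn lower in 3 of 3. Of the receptors, 16 were tested and 0 passed. Lrp6, the coreceptor that DKK1 binds, was at 18.8 to 41.6 CPM and differed by 0.13 (SE 0.16), and Ror2 was at 5.69 to 37.6 CPM and differed by -0.40 (SE 0.22). The R-spondins, which raise receptor levels, were scarce, with Rspo2 at 0.05 to 2.80 CPM and Rspo1 at 0 to 2.60 CPM.

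Among genes that act in the cytoplasm, Csnk1a1, a kinase of the destruction complex, was at 248 to 313 CPM and differed by -0.05 (SE 0.08). Ctnnb1, which encodes β-catenin, was at 72.1 to 90.9 CPM in the 6 sums and differed by 0.06 (SE 0.11). None of the 14 cytoplasmic genes tested passed with the block or had an unadjusted p under 0.05. Among nuclear factors, Cby1, an antagonist of β-catenin, was at 62.5 to 93.1 CPM and differed by 0.35 (SE 0.12, adjusted p = 0.77 by edgeR), and Chd8 was at 22.9 to 46.8 CPM and differed by -0.12 (SE 0.16). Tle4 was lower with auxin in 3 of 3 replicates, at 31.6 and 16.5 CPM, 56.1 and 36.4 CPM, and 37.9 and 17.6 CPM, a log2 difference of -0.89 (SE 0.16) with an adjusted p of 0.29 by edgeR with the block and 0.0019 by DESeq2 with the block.

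Of the 19 other secreted or membrane inhibitors, 13 were tested and 0 passed with or without the block. Sfrp1, which binds Wnt proteins, was the most abundant, at 282 and 308 CPM in replicate 1, 26.4 and 15.4 CPM in replicate 2 and 123 and 131 CPM in replicate 3, a difference of -0.19 (SE 0.18). Znrf3, a ligase that removes receptors from the membrane, was at 5.99 to 34.0 CPM and differed by -0.13 (SE 0.17). Among targets, Cdx1 was at 331 and 399 CPM in replicate 1, 0.69 and 0.48 CPM in replicate 2 and 146 and 110 CPM in replicate 3, a difference of -0.12 (SE 0.15). Cdx1 was thus nearly absent from replicate 2, as were Dkk1 and Sp5. Ccnd1 was at 29.5 to 161 CPM and differed by -0.16 (SE 0.17). Of the targets that are no members, 9 were tested and 0 passed with or without the block.

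Across single cells, the correlations of Dkk1 with the target genes lay around 0. The Spearman correlation of CPM between Dkk1 and Axin2, Sp5, T, Lef1, Tcf7 and Nkd1 within each replicate and condition had a median of 0.015 over 35 values. Over 7188 genes found in at least 20% of the cells of each set the median was 0.011. All genes of a cell share its library and depth, and in counts as sparse as these a weak correlation is no finding. By replicate, the median over the target genes was 0.017, -0.015 and 0.072. The medians over all 7188 genes were -0.011 and 0.0097 for control and auxin of replicate 1, 0.0022 and 0.013 for replicate 2, and 0.017 and 0.051 for replicate 3, so they were also highest there. In replicates 1 and 3 the 23 values of the target genes ran from -0.16 to 0.23, with 18 above 0 and a median of 0.048. How many correlations of the 7188 genes were above 0 was not counted.

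Axin2, Lef1, Sp5 and Nkd1 are given in more detail. In the auxin cells of replicate 1 (n = 169), Dkk1 correlated with Axin2 at 0.13, and in the control cells (n = 168) at -0.16. After thinning, 17 of 71 auxin cells with Dkk1 had Axin2 (23.9%) against 12 of 94 without Dkk1 (12.8%), but 0 of 25 control cells with Dkk1 had Axin2 (which allows a share of up to 12% by 3 counts and 13.7% by the exact binomial interval) against 20 of 138 without (14.5%, 9.08 to 21.5%). The intervals of cells with and without Dkk1 overlapped in both conditions. In replicate 3 the correlation with Axin2 was 0.05 with auxin (n = 84) and 0.04 without (n = 85). Lef1 correlated with Dkk1 at 0.14 and 0.16 in control and auxin cells of replicate 1 and at 0.11 and 0.09 in those of replicate 3, but at 0.03 and -0.14 in those of replicate 2. After thinning, Lef1 was seen in 13 of 37 auxin cells with Dkk1 (35.1%) and 8 of 39 without (20.5%) in replicate 3. Sp5 stayed between -0.01 and 0.06 in all 6 sets. The count of Dkk1 itself correlated with the UMIs of the cell at 0.02 to 0.41, which bears on each of these values.

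**Figure D5:**
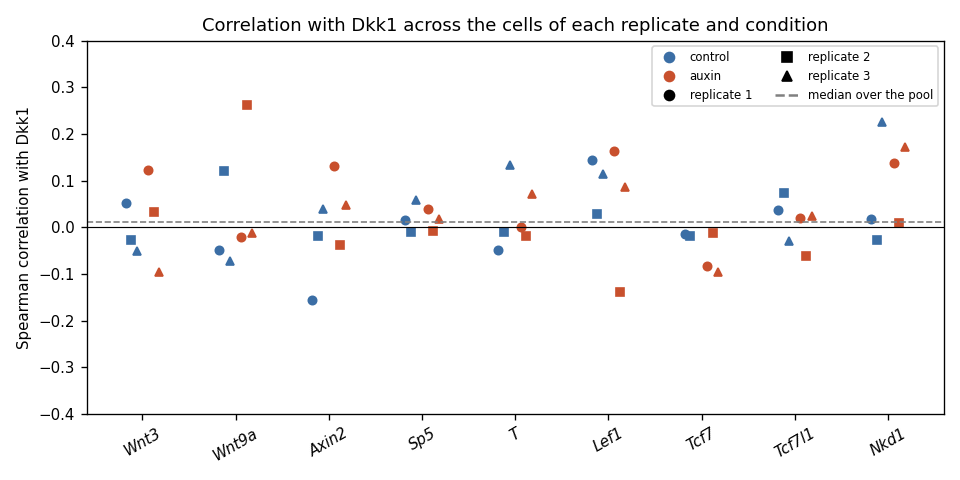
Spearman correlation of CPM with Dkk1 (y axis) for the 9 other members (x axis) across the cells of each replicate (symbol) and condition (control in blue, auxin in red). The dashed line is the median of 0.011 over 7188 genes, and the target genes Axin2, Sp5, T, Lef1, Tcf7 and Nkd1 scattered around it with a median of 0.015.

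In replicate 2 only 6 auxin cells held Dkk1, and all 6 also held Wnt9a, which was found in 63 of the 290 cells. Of these 6 cells, 5 lay on 1 auxin plate, where Wnt9a was found in 31.5% of cells, against 15.3 to 22.5% on the other auxin plates. After thinning, 3 of 4 auxin cells with Dkk1 had Wnt9a. The correlation of Dkk1 with Wnt9a was 0.26 there and 0.12 in the control cells, where 1 of 2 cells with Dkk1 held Wnt9a. In the 4 sets of replicates 1 and 3 this correlation lay between -0.07 and -0.01, with Wnt9a in 2 to 5 cells of each set. Wnt3 and Wnt9a, which were both higher with auxin in replicate 2, were found together in 23 auxin cells, of 66 with Wnt3 and 63 with Wnt9a, with a correlation of 0.17. In the control cells of replicate 2 they were found together in 3 cells, of 44 and 27, with a correlation of -0.01. Wnt3 and Lef1 correlated at -0.24 in the auxin cells and -0.06 in the control cells.

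The genes most like Dkk1 were taken from the 7188 genes by the mean Spearman correlation over the 6 sets. They were Ccl25 (0.15), Tnfrsf10b (0.13), Sacm1l (0.13), Pwp2 (0.13) and Npl (0.13), none of them on the Wnt list. Over the 4 sets of replicates 1 and 3 only, where Dkk1 had UMIs in many cells, Ccl25 came first again (0.19), followed by Gm9575, Zfp428, Tmem69 and Ptcd1. The likeness was weak in every case.

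Around Dkk1, 21 annotated genes start within 1 Mb of its start, and the 8 of these that were tested (Ermp1, Mlana, 9930021J03Rik, Ranbp6, Il33, Uhrf2, Gldc and Cstf2t) did not pass the threshold with the replicate block. The nearest of them, Gldc, starts 374 kb away on the side toward which Dkk1 is transcribed and was at 3.83 and 4.52 CPM in replicate 1, 32.5 and 39.1 CPM in replicate 2 and 20.8 and 17.8 CPM in replicate 3, a log2 difference of 0.09. Cstf2t, 533 kb away on the other side, differed by 0.01, and Il33, an alarmin cytokine, by 0.92 with an adjusted p of 0.85 by edgeR. In these sums the difference of Dkk1 was thus 2.35 on the log2 scale with the block, and those of its tested neighbours lay between -0.12 and 0.92.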

How the data were processed

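Single RAD21-AID ES cells, control or auxin-treated, were measured by Smart-SCRB in 3 replicates. The authors trimmed adapters, assigned reads to wells and UMIs and aligned them to mm10; the deposited files hold raw UMI counts per gene and cell. The aligner, counter and annotation are not given in the sources used here. The authors also deposited detected genes and summed counts per cell, which equalled values recomputed here in 1536 of 1536 wells, the percent of counts from ERCC spike-ins, and a saturation fraction per plate (0.283 to 0.579).

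Members and lists were chosen with earlier results of these data known. Named genes were the 10 members, genes of the Wnt list past the threshold, the 2 most abundant per role, the 5 most like Dkk1, genes starting within 1 Mb of it, and Rad21. Tle4 was named after its values were seen. The 92 ERCC and 11 transgene rows were left out of library sizes and tests. Conditions came from the annotation of each well. Doublets were not called in these sorted cells.

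Sums of counts over the cells of each replicate and condition were tested with edgeR 4.0.16 (filterByExpr, TMM, quasi-likelihood) in R 4.3.3, with a replicate block and DESeq2 1.42.0 as alternatives, and checked on simulated data. CPM is per 1000000 UMIs of a sum, plate or cell. Intervals are 95%, Poisson for CPM and exact binomial for shares and ratios, and cover counting error only. With 3 UMIs or fewer in a sum no ratio was given. Replicate numbers pair the samples, since each replicate was 1 run of the whole procedure with both conditions, and deviations of its sums from the group means correlated with 0.854, 0.816 and 0.650. The study describes them as biological replicates. Gene positions came from GENCODE M21 (mm10), promoters from RefSeq (GRCm38.p6). FISH, imaging and accessibility data were not analysed here.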

Additional observations from a re-analysis of the deposited data

Results flagged for a closer look

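The 2 plates of replicate 3 left out of the sums held members above the level of the control plate that was used. Dkk1 was at 17.8 CPM on the plate annotated as control and 52.8 CPM on the plate annotated as auxin, against 9.07 CPM on the control plate used, and the 95% Poisson intervals did not overlap it on either plate. Tcf7l1 was at 77.3 CPM on the plate annotated as auxin against 51.6 CPM, and at 55.3 CPM on the plate annotated as control, where the intervals overlapped. For the other 8 members neither plate was above the control plate in this sense. Which condition these plates had cannot be told apart from the sources used here. Groups of 3 replicates were too small for a check on outlying samples.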

How the results depend on the processing

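The count of all genes past the threshold was 0 under edgeR with other size factors, without a filter on low counts, without any 1 replicate (0 to 0), with either placement of the 2 disputed plates, with cells of more than 4000 genes, and by DESeq2. On simulated sums edgeR without the block made no calls, so a count of 0 from it says nothing about stability. With the replicate block it was 3 by edgeR and 56 by DESeq2. Of the Wnt list, the block gave 1 gene (Dkk1, chosen on this contrast) by edgeR and 2 (Dkk1 and Tle4) by DESeq2. With the block and without replicate 1, 2 or 3 the count of all genes was 14, 32 and 2, an alternative chosen after seeing the data, and it was 0 with the disputed plates under the condition of the source values. Dkk1 was not among the 2 genes called without replicate 3, where its log2 fold change was 2.22. Since Dkk1 was chosen on this contrast, its calls support nothing.

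The fitted log2 fold change of Dkk1 (2.29) was 2.35 with the replicate block, 2.11 to 2.67 without 1 replicate, and 1.18 with the disputed plates under the condition of the source values (with the block 1.32, and 2.59 without replicate 1). The share of cells with Dkk1 was 13.0 to 31.5 points higher with auxin over its alternatives, and the median correlation with the targets -0.0098 to 0.048. Of 96 values of the other 9 members under other settings, 87 moved less than the spread between replicates and 8 changed sign (4 of Sp5, 2 of Tcf7, 1 each of T and Nkd1). For Wnt3 and Tcf7, which had a ratio in only 1 replicate, the counting error of that ratio took the place of this spread. Of 51 further values with the block, from settings chosen after seeing the data, 16 moved by more than that spread (of Wnt3, Wnt9a, Sp5, Lef1 and Tcf7) and 10 changed sign. The cause of these moves was not tested. Depth limits the precision for T and, outside replicate 2, Nkd1 and the ligands, which had at most 22 UMIs in a sum.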
